A study of Mus musculus with 15 samples.

Results

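Interferon-stimulated genes are 39 of the 47729 features in a count table of cells sorted as aortic macrophages, taken by their symbols from a list. Of these, 8 are guanylate-binding proteins (GBP) and immunity-related GTPases (IRG), mainly known as targets of interferon gamma, and the other 31 are called type I members here, since most are known as targets of type I interferon. Each of the 39 symbols was found in the table, with Ddx58, now called Rigi, under its older symbol, and each of the 39 passed the filter on low counts. The cells were sorted as F4/80+ CD64+ macrophages from aortas of Apoe-/- mice, a strain without apolipoprotein E that develops atherosclerosis. The libraries carry the label Olfr2+ or Olfr2- for the olfactory receptor Olfr2. The labels' protocols give pooled aortas of 4 female Apoe-/- mice fed a high fat (Western) diet for 4 weeks, sorts of 100 to 200 cells, and Smart-Seq2, in which cDNA from few cells is amplified by PCR, here for 18 cycles.

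The libraries labelled Olfr2+ were the sorted samples numbered 2, 3 and 4, in 10 columns, and those labelled Olfr2- were the samples numbered 1, 3 and 4, in 5 columns. Both groups share the Apoe-/- genotype, the diet, the sex and the sort gate, and differ by the Olfr2 label. The sorts were technical replicates of pooled aortas, so p-values measure spread between sorts only, and this may be technical. The Olfr2+ samples 2, 3 and 4 totalled 363.9, 272.6 and 67.5 M counts, where M stands for 1000000, against 30.5, 85.0 and 73.9 M in the Olfr2- samples 1, 3 and 4.

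Several measurements of the libraries bear on the values that follow. The Olfr2 transcript had 1, 9 and 8 counts in the samples labelled Olfr2+, against 76, 34 and 35 counts in those labelled Olfr2-, which goes against the labels, so directions below are those of the labels. Each of 7 Olfr2+ columns, all of sample 2 and 3A to 3C of sample 3, had a total between 76.0 and 95.6 M counts, while the Olfr2+ columns 3D, 4A and 4B and the 5 Olfr2- columns held 29.9 to 53.2 M. Columns above 60 M counts therefore carry 1 label only, and over all columns the label and this depth set cannot be told apart. 8 fibroblast markers summed to 29475 to 36001 counts per 1000000 of the column total (CPM) in the 7 Olfr2+ columns above 60 M and to 2271 to 4864 CPM in the Olfr2+ columns below it, against 2181 to 3896 CPM in the Olfr2- columns. 7 B cell markers, mostly Igkc and Ighm, summed to 213 to 5398 CPM in the Olfr2+ columns above 60 M and 35225 to 54906 CPM in those below, against 22933 to 41541 CPM in the Olfr2- columns. The list did not move as 1. In the Olfr2+ columns above 60 M, 2 of the 7 lay wholly below the Olfr2- columns and 4 wholly below the other Olfr2+ columns. In the fit over all columns given below, 5 of the 7 had a log2 fold change above 0. Markers of the sorted type were present in every column: 10 macrophage genes summed to 7467 to 14692 CPM and 2432 to 3339 CPM in those same Olfr2+ sets, against 1568 to 8649 CPM in Olfr2-. Fibroblast sums thus exceeded macrophage sums in the Olfr2+ columns above 60 M, and B cell sums did so in all the other columns. The lists differ in their genes, so these sums do not give shares of cells. Adgre1, which encodes F4/80, ran at 123 to 312 CPM and 46.0 to 84.3 CPM in the Olfr2+ sets, against 9.48 to 235 CPM in Olfr2-, and Fcgr1, which encodes CD64, at 0.544 to 103 CPM and 0.772 to 3.43 CPM, against 4.18 to 20.0 CPM. The part of these differences in the results below was not tested. In bulk samples, fewer cells of a type and less RNA per cell cannot be told apart.

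Interferons are secreted proteins that cells release on sensing foreign or misplaced nucleic acid. Type I interferons signal through Ifnar1 and Ifnar2 to a complex that holds Stat2 and Irf9 and binds the interferon-stimulated response element (ISRE), whereas interferon gamma signals through Ifngr1 and Ifngr2 to genes with a gamma-activated site (GAS). In macrophages these signals raise genes that sense viral RNA and DNA, block viral replication and attack vacuoles that hold pathogens. In atherosclerotic aorta, macrophages with raised interferon-stimulated genes are known as one of the states that single-cell studies describe.

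The letters of both elements were searched for in the members' promoters. A RefSeq promoter (build GRCm38.p6) was at hand for 30 of the 39 members, and the ISRE core (GAAA, any 2 bases, GAAA, on either strand) lay within 250 bases before to 50 bases after the start of 18 of them (60%), against 3.489% of the 27025 promoters of the same length. By class, 12 of 23 type I members and 6 of 7 GTPase members held an ISRE core. The GAS letters (TTC, any 3 bases, GAA, whose ends can share letters with an ISRE core) were found in 10 of the 30 (33.33%), against 8.466% of the 27025 promoters, with 7 of 23 type I members and 3 of 7 GTPase members. Such a match is a description of letters and not a bound site. Mx1, Mx2, Oas2, Usp18, Dhx58, Zbp1, Ifi204 and Parp14 had no entry, and Iigp1 was not analysed for its promoter.

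The 250 bases before the start are given, 5′ to 3′ on the gene's strand, for Ifit3, the 1 member that passed the test. They are also given for 4 members chosen after their values were seen. These are Isg15 and the 3 GTPase genes whose Olfr2+ columns above 60 M all exceeded the Olfr2- columns. Capitals mark the ISRE core or GAS letters.
Ifit3, chr19:34583279-34583528, plus strand: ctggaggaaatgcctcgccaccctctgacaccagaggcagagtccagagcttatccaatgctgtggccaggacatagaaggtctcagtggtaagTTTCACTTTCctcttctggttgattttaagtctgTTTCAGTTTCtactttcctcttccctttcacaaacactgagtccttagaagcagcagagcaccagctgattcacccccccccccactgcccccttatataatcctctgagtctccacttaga
Gbp3, chr3:142559794-142560043, plus strand: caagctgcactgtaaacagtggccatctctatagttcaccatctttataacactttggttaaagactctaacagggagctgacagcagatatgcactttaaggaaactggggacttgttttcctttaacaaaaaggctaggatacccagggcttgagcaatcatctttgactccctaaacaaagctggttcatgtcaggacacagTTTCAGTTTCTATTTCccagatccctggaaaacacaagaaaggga
Gbp7, chr3:142530086-142530335, plus strand: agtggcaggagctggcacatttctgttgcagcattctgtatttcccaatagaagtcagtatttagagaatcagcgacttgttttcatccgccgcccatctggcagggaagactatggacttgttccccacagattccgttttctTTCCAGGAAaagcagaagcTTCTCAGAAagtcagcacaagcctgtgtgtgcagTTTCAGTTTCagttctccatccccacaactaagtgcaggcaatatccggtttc
Ifi47, chr11:49076337-49076586, plus strand: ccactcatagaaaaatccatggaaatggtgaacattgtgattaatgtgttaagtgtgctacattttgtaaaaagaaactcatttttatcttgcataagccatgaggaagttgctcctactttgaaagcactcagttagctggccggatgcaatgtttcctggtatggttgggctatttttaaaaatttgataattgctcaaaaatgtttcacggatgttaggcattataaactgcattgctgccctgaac
Isg15, chr4:156200819-156201068, minus strand: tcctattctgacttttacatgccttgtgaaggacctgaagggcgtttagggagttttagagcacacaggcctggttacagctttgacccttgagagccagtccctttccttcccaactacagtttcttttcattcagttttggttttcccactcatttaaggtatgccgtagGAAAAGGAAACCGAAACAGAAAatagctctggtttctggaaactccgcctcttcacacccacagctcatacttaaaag
Ifit3 carried ISRE cores starting 156 and 122 bases before its start, both read on the opposite strand. Gbp3 had overlapping cores at 45 and 39 bases, and Gbp7 had 1 core at 53 bases with GAS letters at 106 and 87 bases. In Isg15, 3 overlapping cores began 78, 72 and 66 bases before the start. Ifi47 had neither set of letters in this window.

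Each of the 39 members had counts in each of the 15 columns. Levels per kilobase of exon spanned a wide range: Ifitm3, a membrane protein that restricts viral entry, had a median of 1342 CPM per kilobase over the 15 columns. Irf1 followed with 138 CPM per kilobase and Gbp2 with 74.4, while Gbp5 was lowest with 0.583 and Mx2 next with 0.794. Summed over the 31 type I members, levels were 3039 to 6386 CPM in the Olfr2+ columns above 60 M and 3126 to 3486 CPM in the other Olfr2+ columns, against 2345 to 5689 CPM in the Olfr2- columns, so the 3 sets overlapped. The 8 GTPase members summed to 572 to 1379 CPM and 134 to 600 CPM in those Olfr2+ sets, against 122 to 800 CPM in Olfr2-, and here too the ranges overlapped.

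**Figure D1:**
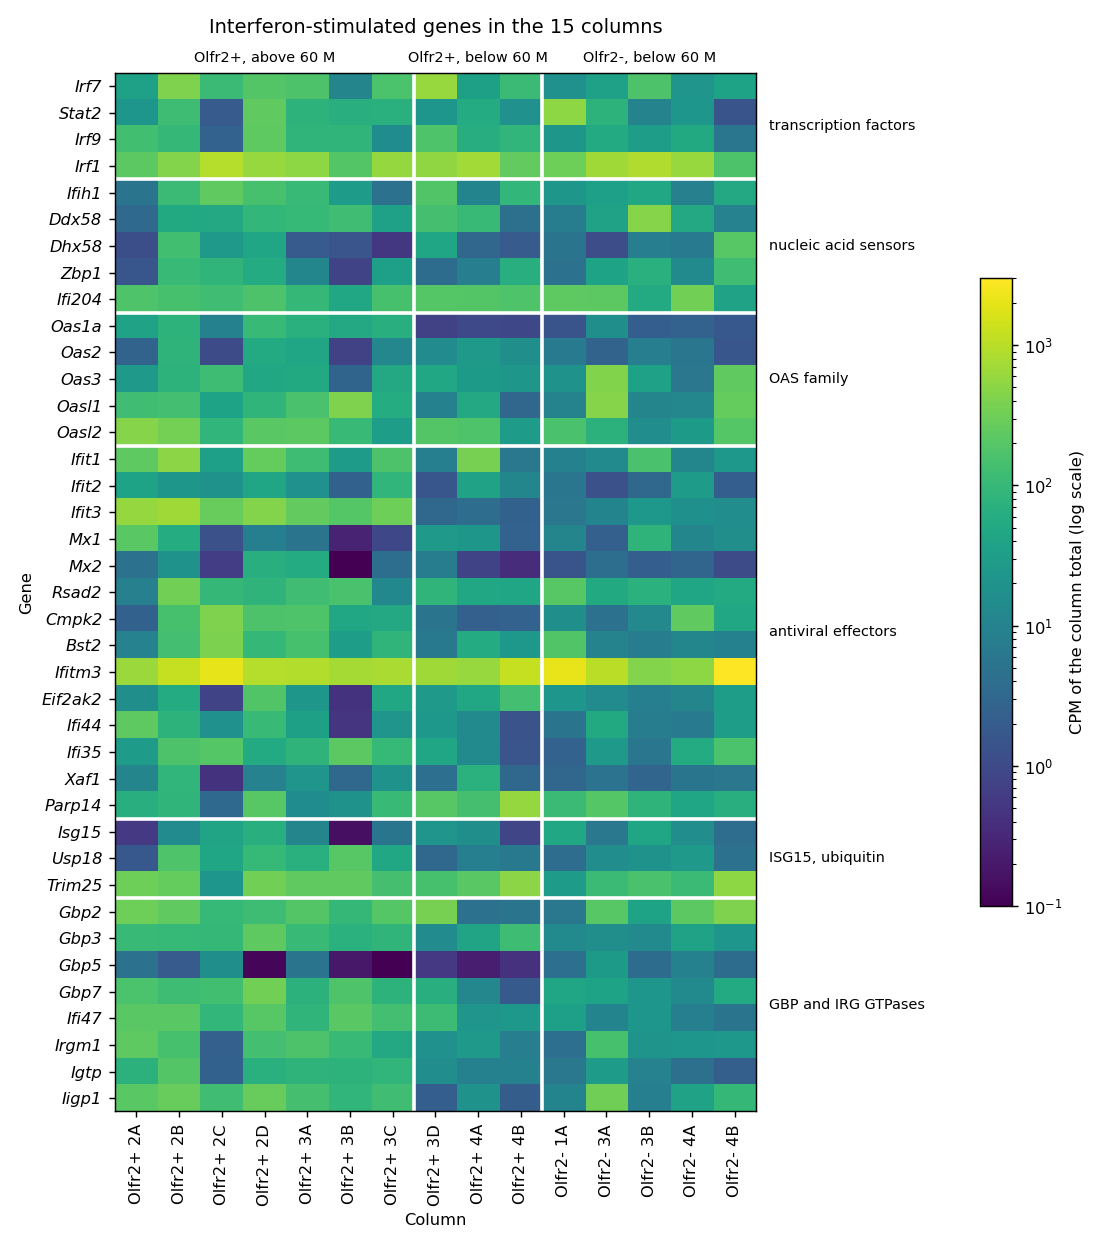
Level of each member (rows, grouped by role) in each of the 15 columns, as CPM of the column total on a log color scale; white lines part the 7 Olfr2+ columns above 60 M counts, the 3 Olfr2+ columns below and the 5 Olfr2- columns. Ifitm3 and Irf1 are bright throughout, and Ifit3 is bright in the first 7 columns only.

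**Figure D2:**
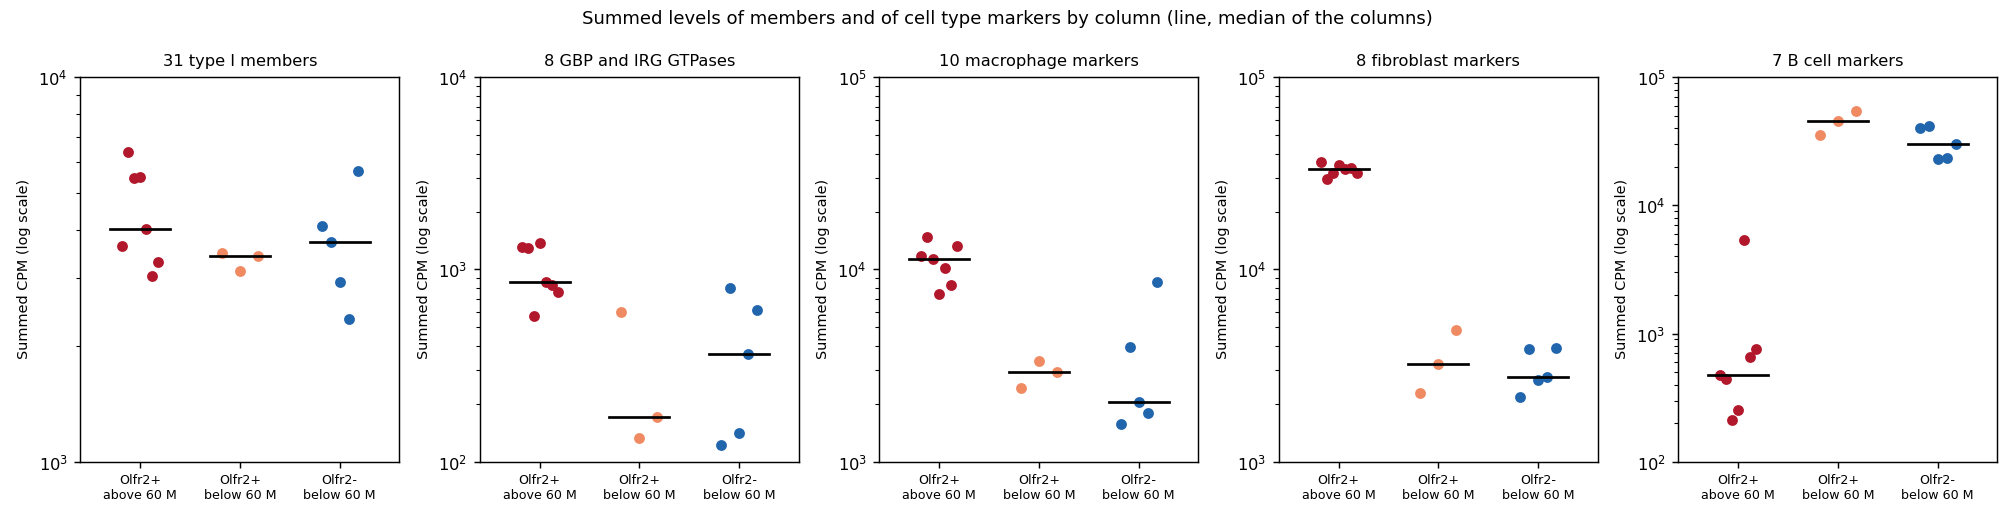
Summed CPM (log scale) of the 31 type I members, the 8 GTPase members and the macrophage, fibroblast and B cell markers, 1 point a column, with the median of the columns as a line. The type I sums overlap between the sets, whereas fibroblast sums are 29475 CPM or more in the Olfr2+ columns above 60 M and 4864 CPM or less in the other columns.

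Repeat columns of 1 sample differed widely. In Olfr2+ sample 2, the highest of 4 columns exceeded the lowest by a median of 28-fold over the members, and 25 of the 39 differed by more than 10-fold. Isg15, a ubiquitin-like modifier, had 0.559, 14.7, 41.6 and 65.2 CPM in columns 2A to 2D. This was no property of the members alone, since 8504 genes averaging at least 10 CPM had a median ratio of 47.6-fold there. In the other samples with repeats within a depth set, the members' median ratios ran from 2.95-fold (Olfr2+ sample 4) to 4.66-fold (Olfr2+ sample 3, columns 3A to 3C), against 2.87-fold to 5.60-fold for the 8504 genes. Fold changes below rest on counts summed per sample.

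Over all columns, 3 Olfr2+ samples were compared with 3 Olfr2- samples with edgeR's quasi-likelihood test, adjusted by Benjamini-Hochberg over 24362 genes. Of the 39 members, 1 rose (Ifit3) and 0 fell at an adjusted p under 0.05, where 1.12% of all genes rose and 0.46% fell. 17 members had an unadjusted p under 0.05 in the higher direction (17.1% of all genes). This share was not counted apart for genes averaging at least 10 CPM, so it is no background of like level. The estimated log2 fold change lay above 0 for 36 members with TMM scaling, against 27 members on library totals, and 52.5% of all genes lay above 0. The members are mostly well expressed, and genes averaging at least 10 CPM give a closer background: 82.8% of 8504 such genes lay above 0, beside 35 of the 37 members at that level. Samples of the 2 groups did not overlap for 14 members, all higher in Olfr2+, while 13.5% of all genes were higher and 22.1% lower without overlap; at 10 CPM or more this held for 14 of 37 members and for 30.2% of genes. The median log2 fold change was 2.05 for type I members and 2.54 for GTPase members, against 0.24 over all genes tested and 1.67 over genes of at least 10 CPM. On library totals the median of all genes moved to -0.88, a shift larger than 1 on the log2 scale, that of type I members to 0.72 and that of GTPase members to 1.18. With depth set as a covariate the medians were 0.64 for type I and 0.78 for GTPase members, against -0.42 over all genes tested. Genes of at least 10 CPM were not counted apart in that fit. That fit split Olfr2+ sample 3 by depth set into 2 units. Columns above 60 M carry 1 label only, so the fit's label estimate rests on the columns below 60 M. It is therefore no check apart from the comparison within those columns. Without Olfr2+ sample 2, the medians were 1.31 and 1.51, against -0.61 over all genes tested.

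Within the columns below 60 M counts, Olfr2+ samples 3 (column 3D) and 4 (4A and 4B) were set against the same Olfr2- samples, so the 2 comparisons share their Olfr2- side and are not independent. No member passed here, nor did any of the 29989 genes tested (0%), by edgeR; DESeq2 called 3 members higher and 1 lower, beside 8.27% and 1.72% of the 12522 genes it tested. At an unadjusted p under 0.05, 2 members passed, against 10.4% of all genes: Irf7 was higher and Gbp5 lower in Olfr2+. The log2 fold change was above 0 for 26 members, beside 40.2% of all genes; at 10 CPM or more, the counts were 25 of 34 members and 68.3% of genes. 11 members were higher without overlap, beside 9.28% of all genes, and 2 members were lower without overlap, beside 17.1%; at 10 CPM or more, 11 of 34 members and 24.3% of genes were higher without overlap. Medians were 0.73 for type I members and 0.88 for GTPase members, against -0.43 over all genes and 0.78 over genes of at least 10 CPM. Among well expressed genes the members' shares and medians were thus near the background in this comparison.

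**Figure D3:**
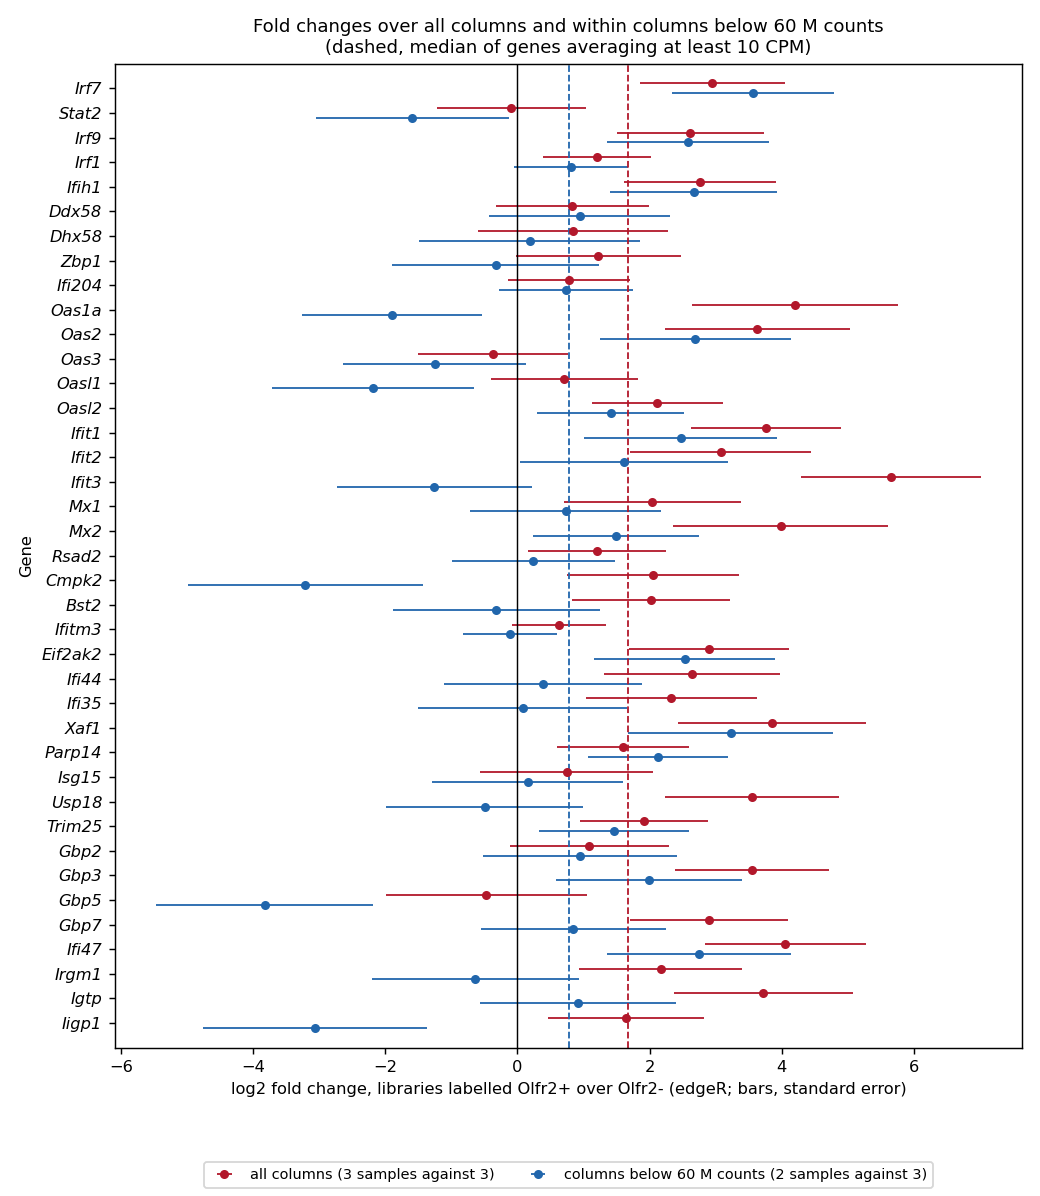
Log2 fold change of each member, libraries labelled Olfr2+ over Olfr2-, with its standard error, over all columns (red, 3 samples against 3) and within the columns below 60 M counts (blue, 2 against 3); dashed lines mark the medians of genes averaging at least 10 CPM, 1.67 and 0.78. Ifit3 has the highest red value (5.66) and a blue value below 0 (-1.26), whereas Irf7, Irf9 and Oas2 lie right of 0 in both.

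Transcription factors come first in the response. Irf7, the factor that amplifies interferon production, had 10.7 to 413 CPM (median 160) in the 7 Olfr2+ columns above 60 M and 610, 34.8 and 113 CPM in columns 3D, 4A and 4B, against 18.2, 36.6, 167, 21.5 and 40.2 CPM in the Olfr2- columns. Its columns overlapped, but scaled by TMM and summed per sample its levels were 399, 251 and 80.2 CPM in Olfr2+ against 11.0, 63.9 and 19.6 CPM in Olfr2-, which did not overlap. This gave a log2 fold change of 2.95 (SE 1.10, edgeR's adjusted p = 0.0944) over all columns and 3.56 (SE 1.23, adjusted p = 0.423) within the columns below 60 M, where it was 1.41 without Olfr2+ sample 3 (column 3D).

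Irf9, the DNA-binding part of the complex that binds the ISRE, had 2.52 to 237 CPM (median 86.5) in the Olfr2+ columns above 60 M and 175, 62.2 and 87.6 CPM in the other Olfr2+ columns, against 23.4, 54.8, 32.2, 53.4 and 5.64 CPM in the Olfr2- columns. Below 60 M, each Olfr2+ column thus lay above each Olfr2- column, an order found for 1.02% of all genes and for 2 members, Irf9 and Oas2. Genes averaging at least 10 CPM were not counted apart for this order. The log2 fold changes of Irf9 were 2.62 (SE 1.12, adjusted p = 0.121) and 2.58 (SE 1.23, adjusted p = 0.479), neither of which passed the edgeR test. Irf1, a factor also induced strongly by interferon gamma and the highest of this group, overlapped in its columns, with 193 to 943 CPM and 249 to 716 CPM in the 2 Olfr2+ sets against 168 to 883 CPM in Olfr2-. Its log2 fold change over all columns was 1.20 (SE 0.81, adjusted p = 0.275) with TMM and -0.29 when genes under 10 CPM were left out and the scaling recomputed. Stat2, the partner of Irf9, had 1.90 to 243 CPM and 18.2 to 57.3 CPM in the Olfr2+ sets, and 1.47 to 521 CPM in Olfr2-, where column 1A alone held the 521 CPM.

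Of the 5 sensors of nucleic acid, 2 were higher in Olfr2+ without overlap in both comparisons and 0 passed the test. The same lack of overlap held for 6.47% of all genes tested in both, and for 15.1% of those averaging at least 10 CPM. Ifih1 (MDA5), a sensor of long double-stranded RNA, had 267, 91.8 and 52.9 TMM-scaled CPM in Olfr2+ samples 2, 3 and 4 against 14.1, 29.0 and 17.6 in Olfr2- samples, without overlap. Its log2 fold change was 2.76 (SE 1.15, adjusted p = 0.115) over all columns and 2.67 (SE 1.27, adjusted p = 0.479) within those below 60 M, where it was 1.49 without Olfr2+ sample 3. Ifi204, a DNA-binding interferon-inducible protein and the highest of the sensors, had 321, 156 and 210 TMM-scaled CPM in Olfr2+ against 143, 120 and 138 in Olfr2-. Although these did not overlap, its log2 fold change of 0.78 (SE 0.92, adjusted p = 0.534) became -0.44 on library totals. Ddx58 (RIG-I), Dhx58 (LGP2) and Zbp1, sensors of viral RNA and of unusual nucleic acid helices, overlapped between the groups in both comparisons. Dhx58 was among the most uneven members, with 0.527 to 131 CPM in Olfr2+ columns above 60 M and 1.91 to 43.6 CPM in those below, against 1.15 to 203 CPM in Olfr2- columns.

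Active enzymes of the OAS family make the second messenger that switches on the RNA-degrading enzyme RNase L, although not all OAS-like proteins do. The order of the sets differed between the 5 members of the family. Oas1a had 9.30 to 110 CPM (median 66.5) in the Olfr2+ columns above 60 M but 0.768, 0.958 and 0.937 CPM in columns 3D, 4A and 4B, against 1.44, 17.0, 2.20, 2.56 and 1.72 CPM in the Olfr2- columns. The 3 Olfr2+ columns below 60 M were the lowest of the 15. The log2 fold change was accordingly 4.20 (SE 1.56, adjusted p = 0.0941) over all columns and -1.90 (SE 1.36, adjusted p = 0.623) within those below 60 M, neither past the edgeR test, and the second was -0.17 without Olfr2- sample 3. Oas2 showed another order: 0.764 to 80.7 CPM (median 12.0) in the Olfr2+ columns above 60 M and 14.5, 26.3 and 17.0 CPM in those below, against 6.69, 2.69, 8.20, 5.69 and 1.59 CPM in Olfr2-. Its log2 fold changes were 3.63 (SE 1.40, adjusted p = 0.101) and 2.69 (SE 1.44, adjusted p = 0.514). Oasl2, the highest of the family, had 566, 189 and 128 TMM-scaled CPM in Olfr2+ against 95.8, 39.5 and 68.0 in Olfr2-, with log2 fold changes of 2.12 (SE 0.99, adjusted p = 0.145) and 1.41 (SE 1.11, adjusted p = 0.656). Oas3 and Oasl1 overlapped, and their highest columns below 60 M were both Olfr2- 3A, with 418 and 458 CPM.

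Among the antiviral effectors, Ifit3 was the 1 member that passed. IFIT proteins bind foreign or unmodified RNA and curb its translation. Ifit3 had 583, 685, 272 and 452 CPM in columns 2A to 2D and 249, 196 and 303 CPM in 3A to 3C, all labelled Olfr2+. In the Olfr2+ columns 3D, 4A and 4B it had 3.16, 3.99 and 2.41 CPM, against 6.04, 10.6, 24.2, 17.7 and 15.8 CPM in the 5 Olfr2- columns. The columns thus fell into 3 sets without overlap, with the Olfr2+ columns above 60 M highest and the other Olfr2+ columns lowest. The 7 columns with high Ifit3 were also those with fibroblast marker sums of 29475 CPM or more, whose part in this result was not tested.

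Summed per sample, Ifit3 had 1029, 310 and 3.79 TMM-scaled CPM in Olfr2+ samples 2, 3 and 4, against 3.65, 11.8 and 11.2 in Olfr2- samples 1, 3 and 4, so that Olfr2+ sample 4 lay among the Olfr2- samples. Its log2 fold change came to 5.66 (SE 1.36, edgeR's adjusted p = 0.0422) over all columns and -1.26 (SE 1.47, adjusted p = 0.775) within the columns below 60 M. With depth set as a covariate it was -1.32 (adjusted p = 0.659). The call was lost without Olfr2+ sample 2 (log2 fold change 4.11, adjusted p = 0.163), without Olfr2- sample 1 (5.06, p = 0.0650) and without Olfr2- sample 3 (6.09, p = 0.0515). It was also lost on library totals (4.22, p = 0.0541), on genes of at least 10 CPM (3.85, p = 0.233) and with limma-voom (4.35, p = 0.153). Ifit3 has a near-identical neighbour, Ifit3b, so the split of reads between these genes is uncertain.

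The steps of the order of Ifit3 across sets were counted over the 24362 genes tested, and the whole order was not. Genes averaging at least 10 CPM were not counted apart, so the shares that follow are no background of like level. Olfr2+ columns above 60 M lay wholly above the Olfr2- columns for 2% of all genes and for 4 of the 39 members, which were Ifit3, Gbp3, Gbp7 and Ifi47. They lay wholly above the other Olfr2+ columns for 2.85% of genes and again 4 members, which were Oas1a, Ifit3, Gbp7 and Iigp1. The 3 Olfr2+ columns below 60 M lay wholly below the Olfr2- columns for 5.18% of genes and for 3 members, Oas1a, Ifit3 and Gbp5.

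**Figure D4:**
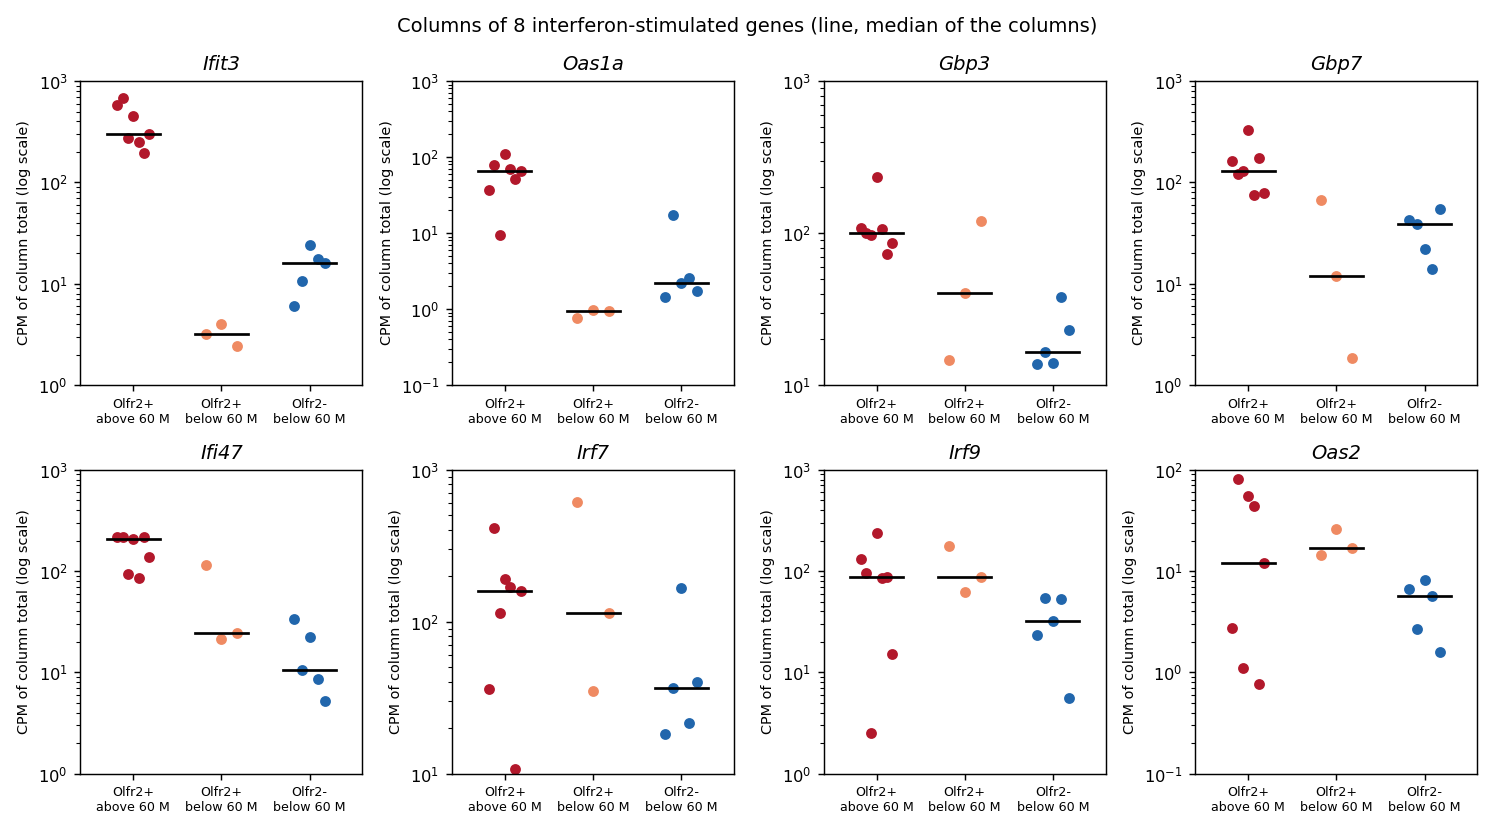
CPM of the column total (log scale) for 8 members, 1 point a column, in the Olfr2+ columns above 60 M counts, the Olfr2+ columns below and the Olfr2- columns; lines are medians of the columns. By median, Ifit3 and Oas1a are highest in the first set and lowest in the second, while Irf9 and Oas2 in the second set lie above every Olfr2- column.

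The order of Ifit3 across the sets was not shared by Ifit1. Ifit1 had 28.5 to 506 CPM (median 168) in the Olfr2+ columns above 60 M and 8.51, 355 and 6.16 CPM in 3D, 4A and 4B, against 9.38, 13.1, 155, 11.4 and 23.9 CPM in Olfr2-. Single columns in each of the last 2 sets, 4A and Olfr2- 3B, were far above their neighbours. The log2 fold change of 3.77 (SE 1.13, adjusted p = 0.0675) did not pass, and within the columns below 60 M it was 2.47 (SE 1.46, adjusted p = 0.544) but -1.34 without Olfr2+ sample 4. Ifit2 ran at 2.48 to 87.1 CPM and 1.57 to 37.7 CPM in the Olfr2+ sets, against 1.30 to 29.3 CPM in Olfr2-.

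Eif2ak2 (PKR), the kinase that stops translation on binding double-stranded RNA, had 132, 33.2 and 98.4 TMM-scaled CPM in Olfr2+ against 13.4, 9.08 and 12.9 in Olfr2-. Xaf1, a pro-apoptotic interferon target, had 59.0, 19.8 and 47.5 against 1.79, 3.21 and 3.74. Neither overlapped, in either comparison, and neither passed: log2 fold changes for Eif2ak2 were 2.90 (SE 1.22, adjusted p = 0.117) and 2.53 (SE 1.37, adjusted p = 0.516), and for Xaf1 3.85 (SE 1.42, adjusted p = 0.0930) and 3.23 (SE 1.56, adjusted p = 0.484). For Xaf1 the single column 4A, with 71.5 CPM, held most of the Olfr2+ signal below 60 M, where 3D and 4B had 4.28 and 3.11 CPM against 2.89 to 5.93 CPM in the Olfr2- columns. Without Olfr2+ sample 4 the values below 60 M were 1.30 for Eif2ak2 and 0.64 for Xaf1.

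Cmpk2, a mitochondrial nucleotide kinase that neighbours Rsad2, had lower values in Olfr2+ below 60 M, without passing. Its levels were 5.29, 2.37 and 2.58 CPM in the Olfr2+ columns below 60 M and 2.50 to 413 CPM in those above, against 16.7, 4.74, 12.6, 247 and 47.8 CPM in Olfr2-. Its log2 fold changes were 2.05 (SE 1.31, adjusted p = 0.251) and -3.21 (SE 1.78, adjusted p = 0.523), the second of which was -0.82 without Olfr2- sample 4. Rsad2 (viperin), an enzyme that makes a chain-terminating nucleotide, had 9.09 to 329 CPM and 44.1 to 86.3 CPM in the Olfr2+ sets, against 44.6 to 207 CPM in Olfr2-.

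Ifitm3, the most abundant member, had 635 to 2065 CPM and 605 to 1225 CPM in the Olfr2+ sets against 437 to 3337 CPM in Olfr2-. Its log2 fold change was 0.63 (SE 0.71, adjusted p = 0.510) with TMM, -0.68 on library totals, and -0.11 (SE 0.71, adjusted p = 0.964) below 60 M. Mx1 and Mx2, dynamin-like GTPases that trap viral particles and are counted here with the type I genes, Bst2 (tetherin), Ifi44, Ifi35 and Parp14 overlapped over all columns. Mx2 had the lowest value of these, 0.0906 CPM in Olfr2+ column 3B, and Mx1 ran from 0.285 to 212 CPM in the Olfr2+ columns above 60 M and from 2.51 to 24.9 CPM in those below, against 2.35 to 83.0 CPM in Olfr2-. Below 60 M, Parp14, an ADP-ribosyltransferase, was higher in the 2 Olfr2+ samples, with 274 and 504 TMM-scaled CPM against 74.0, 149 and 44.0, and its columns overlapped (145 to 591 CPM against 44.0 to 201 CPM).

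Isg15 and the genes around it cover modification and its reversal. Isg15 had 0.155 to 65.2 CPM and 0.870 to 21.8 CPM in the Olfr2+ sets against 3.99 to 47.4 CPM in Olfr2-, so the ranges overlapped throughout. Usp18, the protease that removes Isg15 and damps the receptor, had 169, 133 and 8.78 TMM-scaled CPM in Olfr2+ against 2.36, 12.8 and 11.3 in Olfr2-. Its log2 fold change was 3.55 (SE 1.32, adjusted p = 0.0944) over all columns and -0.50 (SE 1.49, adjusted p = 0.919) below 60 M. Trim25, the ubiquitin ligase that activates RIG-I and the highest of this group, had 474, 287 and 387 against 17.9, 95.9 and 191, with log2 fold changes of 1.91 (SE 0.97, adjusted p = 0.167) and 1.46 (SE 1.13, adjusted p = 0.649), the second of which was 0.59 without Olfr2+ sample 4.

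The GTPase genes encode proteins that assemble on pathogen vacuoles and, for the GBPs, promote inflammasome activation. None of the 8 passed in either comparison. Over all columns, 4 had an unadjusted p under 0.05, all higher, beside 17.1% of all genes, a share not counted apart for genes averaging at least 10 CPM. Ifi47, an IRG, had 85.4 to 219 CPM (median 208) in the Olfr2+ columns above 60 M and 116, 21.4 and 24.3 CPM in 3D, 4A and 4B, against 33.9, 10.4, 22.6, 8.70 and 5.21 CPM in Olfr2-. Its samples did not overlap in either comparison, at 380, 199 and 26.1 TMM-scaled CPM against 20.5, 11.2 and 4.75 over all columns. The log2 fold changes were 4.05 (SE 1.22, adjusted p = 0.0675) and 2.75 (SE 1.39, adjusted p = 0.499). The first passed without Olfr2+ sample 4 (4.59, adjusted p = 0.0452). The second was 1.29 without Olfr2+ sample 3.

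Gbp3 had 73.2 to 234 CPM (median 99.4) in the Olfr2+ columns above 60 M and 14.6, 40.5 and 120 CPM in those below, against 13.8, 16.4, 13.9, 37.8 and 22.9 CPM in Olfr2-. Gbp7 had 75.7 to 331 CPM (median 131) and 67.7, 11.9 and 1.84 CPM, against 42.8, 39.2, 22.1, 14.0 and 54.8 CPM in Olfr2-. For both, the Olfr2+ columns above 60 M stood apart from Olfr2- and the other Olfr2+ columns did not. Log2 fold changes were 3.55 (SE 1.16, adjusted p = 0.0779) and 1.99 (SE 1.41, adjusted p = 0.619) for Gbp3, and 2.91 (SE 1.20, adjusted p = 0.114) and 0.85 (SE 1.40, adjusted p = 0.845) for Gbp7. Below 60 M the Gbp7 value became -1.33 without Olfr2+ sample 3 and the Gbp3 value 0.20 without Olfr2+ sample 4.

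Gbp2, the highest GTPase member, was split within each label: 96.2 to 305 CPM in the Olfr2+ columns above 60 M and 366, 4.90 and 5.32 CPM in those below, against 6.20, 207, 39.6, 228 and 405 CPM in Olfr2-. Its log2 fold change of 1.09 (SE 1.20, adjusted p = 0.502) was -0.25 on library totals, and below 60 M it was 0.94 (SE 1.47, adjusted p = 0.835) but -4.10 without Olfr2+ sample 3. Gbp5 was the lowest member, with 0.0132 to 17.0 CPM in the Olfr2+ columns above 60 M and 0.561, 0.240 and 0.435 CPM in those below, against 4.33, 27.7, 3.90, 9.23 and 3.87 CPM in Olfr2-. Its log2 fold changes were -0.47 (SE 1.52, adjusted p = 0.830) and -3.83 (SE 1.64, adjusted p = 0.463). Igtp and Iigp1, both IRGs, had log2 fold changes of 3.72 (SE 1.35, adjusted p = 0.0908) and 1.64 (SE 1.18, adjusted p = 0.304) over all columns, and 0.92 (SE 1.48, adjusted p = 0.843) and -3.06 (SE 1.70, adjusted p = 0.523) below 60 M, where without Olfr2- sample 3 they were 2.29 and -1.52. Irgm1, an IRG that regulates the others, ran at 2.35 to 229 CPM and 8.10 to 26.1 CPM in the Olfr2+ sets, against 4.26 to 152 CPM in Olfr2-. Reads of GBP and IRG paralogs may be shared between them, as may those of Oas1a and its close copies, and Smart-Seq2 does not mark the strand.

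Across the groups, 10 members were higher in Olfr2+ without overlap between samples in both comparisons: Irf7, Irf9, Irf1, Ifih1, Ifi204, Oas2, Oasl2, Eif2ak2, Xaf1 and Ifi47. The same held for 6.47% of the 24184 genes tested in both, and, at 10 CPM or more, for 10 of 37 members and 15.1% of 8504 genes; the 2 comparisons share samples. None of these passed the adjusted threshold in edgeR, and their shared direction comes from the way they were chosen. Irf1 and Ifi204 turned negative when only genes of at least 10 CPM were scaled and tested over all columns. Overlap was judged on TMM-scaled CPM, not on library totals. The TMM factors were 0.4848 to 0.8685 in Olfr2+ and 1.337 to 1.66 in Olfr2- over all columns. Below 60 M they were 0.6798 to 0.7437 and 1.052 to 1.534. Smaller factors raise scaled levels, here those of Olfr2+. On library totals over all columns, Irf1 was at 0.027, Ifi204 at -0.44 and the rest at 0.72 (Oasl2) to 2.69 (Xaf1).

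Upstream of the members, interferons themselves were near 0. The 20 ligand genes summed to at most 0.401 CPM in the Olfr2+ columns above 60 M and to 1.04 to 2.45 CPM in those below, against 0.319 to 7.86 CPM in Olfr2-. Just 4 of the 20 passed the low-count filter over all columns and 0 of these passed the test. All 4 had log2 fold changes below 0, and 3 were lower in Olfr2+ samples without overlap, beside 22.1% of all genes. The highest, Ifnl3, Ifnl2, Ifnab and Ifnk, averaged 0.229, 0.182, 0.181 and 0.127 CPM. Ifng, which T and natural killer cells mainly make, reached at most 0.0466 CPM and 0.426 CPM in the Olfr2+ sets and 0.459 CPM in Olfr2-. 8 T and natural killer cell markers summed to 0.510 to 18.7 CPM and 4.25 to 99.0 CPM in the Olfr2+ sets, against 21.3 to 280 CPM in Olfr2-.

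Of 18 receptor and signalling genes, 0 passed over all columns or below 60 M. Those with the highest levels were Stat3, Jak1, Socs3 and Ifngr1. The receptor Ifngr1 had 228 to 644 CPM and 57.1 to 678 CPM in the Olfr2+ sets against 46.0 to 250 CPM in Olfr2-, and Socs3, a feedback inhibitor, had 149 to 1017 CPM and 65.8 to 112 CPM against 25.1 to 266 CPM. Jak1, the kinase shared by both receptors, overlapped at 7.01 to 606 CPM and 152 to 558 CPM against 104 to 673 CPM, as did Stat3 at 55.7 to 546 CPM and 384 to 1327 CPM against 350 to 989 CPM. None of 10 genes of upstream sensing passed. Tmem173 (STING) had 2.90 to 273 CPM and 8.78 to 44.2 CPM against 7.19 to 87.2 CPM, Mavs 0.543 to 289 CPM and 2.68 to 6.77 CPM against 4.62 to 53.3 CPM, and Traf3 and Tbk1, which act below both, averaged 70.3 and 19.5 CPM.

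Further targets of type I interferon gave 1 call. Of 42 listed genes, 40 were in the table, 38 were tested over all columns, and Lgals3bp rose while 0 fell. Lgals3bp, a secreted galectin-binding glycoprotein that many cell types make, had 361 to 1243 CPM (median 673) in the Olfr2+ columns above 60 M and 69.5 CPM (median of 16.6 to 132 CPM) in those below, against 20.2 to 58.6 CPM (median 23.5) in Olfr2-. Over all columns its log2 fold change came to 5.29 (SE 1.11, edgeR's adjusted p = 0.0284), and to 2.06 (adjusted p = 0.566) below 60 M. The call was lost without Olfr2+ sample 2 (4.04, adjusted p = 0.155), with depth set as a covariate (2.00, adjusted p = 0.435), with genes of at least 10 CPM (3.51, adjusted p = 0.227), with limma-voom (4.93, adjusted p = 0.102) and with the replicate block (3.36, adjusted p = 0.640). The other genes with the highest levels, Samhd1, Ifi27l2a and Trim30a, overlapped; Samhd1, a nucleotide hydrolase, had 209 to 514 CPM and 562 to 824 CPM against 341 to 1294 CPM. Of 13 further interferon gamma targets, 0 passed in either comparison; the highest were Ciita, Gbp9, Nlrc5 and Gbp8, and Ciita, the activator of MHC class II genes, had 1.04 to 198 CPM and 41.3 to 149 CPM in the Olfr2+ sets against 7.48 to 63.8 CPM in Olfr2-.

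Plasmacytoid dendritic cells, which make type I interferon and carry Irf7 and Bst2 at high levels, were looked for by 7 markers, of which those 2 are themselves members. Of their more specific markers, Siglech reached at most 0.632 CPM and 0.904 CPM in the Olfr2+ sets and 6.76 CPM in Olfr2-, and Ccr9 at most 0.0647 CPM and 0.443 CPM, against 26.2 CPM in Olfr2-. The whole list summed to 70.8 to 757 CPM and 509 to 879 CPM in the Olfr2+ sets, against 341 to 880 CPM in Olfr2-, carried by Tcf4, which other cells also express, and by Irf7 and Bst2. The part of such cells in the Irf7 and Bst2 values was not tested.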

How the data were processed

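RNA was sequenced from sorted aortic macrophages by Smart-Seq2, per the labels' protocols. The authors deposited raw counts per gene, as whole numbers, for 15 columns. Per the submitters' processing notes, the build was GRCm39 and the tools included DRAGEN, STAR 2.7.1 and DESeq2 1.34, with no role for each. The counting tool, strand setting and annotation are not stated there or in the labels. PCR copies are counted, as Smart-Seq2 has no molecular identifiers.

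The title's number was read as the sorted sample and its letter as a repeat, which the labels do not state outright. Counts were summed per sample. No pair of columns agreed within sampling noise (chi-square per degree of freedom of at least 573). Genes were tested with edgeR 4.0.16 (R 4.3.3; TMM, filter by group, quasi-likelihood F test, Benjamini-Hochberg over the whole table, threshold 0.05), over all columns and within columns below 60 M counts; this division follows an earlier account of these data. Standard errors (SE) of fold changes were derived from the F statistics. Column levels are CPM of the column total, and sample levels are CPM scaled by TMM. Exon lengths are of GENCODE on GRCm38, matched by gene ID, and promoters of RefSeq on GRCm38.p6, matched by symbol. Other scalings, filters and units of replication, limma-voom (limma 3.58.1), DESeq2 1.42.0, a replicate block and leaving out each sample were alternatives. The fits were also run on simulated counts, drawn from a mean level per gene shared by all samples apart from changes that were set. Such counts hold no differences in cell content, so they cannot show how those affect the results.

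Members, lists and tests were chosen with earlier results of these data known. Given in full are members that passed, the highest of each role group, and those without overlap in both comparisons; Oas1a, Gbp3, Gbp7, Igtp, Ifit1, Usp18, Gbp5, Iigp1 and Cmpk2 were added after their values were seen. Of the pathway lists, genes that passed and up to 4 with the highest mean CPM are named. Column totals ran from 29.9 to 95.6 M. Reads are PCR copies of cDNA from 100 to 200 cells, so these totals do not give the error of sampling molecules. Some values also rest on few reads, such as 1 count for Gbp5 in Olfr2+ column 3C and 7 for Mx2 in Olfr2+ column 3B.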

Additional observations from a re-analysis of the deposited data

How the results depend on the processing

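Over all columns, 1 member passed as higher; the number was 0 on library totals, with genes of at least 10 CPM, with limma-voom, with the replicate block and with depth set as a covariate, 16 with DESeq2 (14% of the genes it tested were higher), 4 with library names as units (3.4%), 2 with columns as units (3.18%), and 0 to 2 when 1 sample was left out (0.0204% to 3.25%). The type I median of 2.05 was 0.72 on library totals, 0.30 with genes of at least 10 CPM and 0.64 with depth set as a covariate. Medians over all genes tested under those settings were -0.88, 0.17 and -0.42. The GTPase median of 2.54 was 1.18, 0.93 and 0.78 under those same settings, 0.65 with the replicate block, and 1.51 to 3.45 when 1 sample was left out. On library totals Ifi204, Ifitm3 and Gbp2 were at -0.44, -0.68 and -0.25. With genes of at least 10 CPM, Irf1, Ifi204, Ifitm3 and Gbp2 were at -0.29, -0.86, -1.17 and -0.56. With depth set as a covariate, Ifit3, Ifitm3, Oas1a, Usp18, Iigp1 and Cmpk2 were at -1.32, -0.21, -1.95, -0.54, -3.08 and -3.29. Leaving out 1 sample moved Gbp5 between -2.29 and 0.70.

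Below 60 M, where 0 members passed either way, DESeq2 called 3 higher and 1 lower (8.27% and 1.72% of genes). The type I median of 0.73 was -0.10 on library totals, and the GTPase median of 0.88 ran from -0.95 to 1.11 when 1 sample was left out. Ifi204 was at -0.10 on library totals and -0.28 with genes of at least 10 CPM, and Ifitm3 at 0.061 with RLE size factors and 0.048 with DESeq2. Leaving out 1 sample gave -0.44 to 0.17 for Ifitm3, -4.10 to 1.85 for Gbp2, -1.33 to 1.63 for Gbp7, -1.34 to 3.96 for Ifit1 and -1.43 to 0.059 for Usp18. Where a sample left 1 library in a group, that library was assumed to vary like the others.

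Numbers 3 and 4 occur in both groups. Deviations of same-numbered samples from their group means had correlations of 0.0127 and -0.0717, where pairs with unlike numbers ran from -0.175 to 0.2. With 3 samples a group and unlike depths, this cannot tell whether same-numbered samples share more than a number. With the replicate block, Ifit3 was at 1.59 (adjusted p = 0.809), and Gbp2, Iigp1 and Cmpk2 at -1.90, -0.83 and -0.42 over all columns. Below 60 M, the block gave a GTPase median of -0.30, 0.056 for Ifitm3 and -1.60 for Gbp2. The causes of these shifts were not tested. Of the alternatives run for the genes given with a fold change, 336 over all columns and 244 below 60 M kept the direction and the side of the threshold; over all columns 17 reversed, 18 newly passed and 12 no longer passed, and below 60 M 12 reversed and 4 newly passed.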
